A study of Caenorhabditis elegans with 12 samples.

Results

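The glutathione S-transferase genes of Caenorhabditis elegans were followed in whole animals given the statin fluvastatin, with and without a mutation of the kinase gene dlk-1. The family was defined by name as every gene whose symbol begins with gst-, gsto- or gstk-, which gave 49 of the 30301 genes in the deposited table. Of these, 44 were gst genes, 3 were omega class genes (gsto-1, gsto-2, gsto-3) and 2 were kappa class genes (gstk-1, gstk-2). gst-21 and gsto-3 had 2 transcript models, and each was represented by the more abundant one. Fluvastatin raised gst-21, gst-5 and gsto-1 in both genotypes, by 16.4, 5.05 and 2.19 times in the mutant and by 10.4, 5.09 and 2.46 times in wild type. With the replicate number as a term in the model, gst-10, gst-27 and gst-4 were lower with fluvastatin in both genotypes. No member passed the test for a difference between the genotypes.

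Glutathione S-transferases join the tripeptide glutathione to reactive or oily molecules, which makes these more soluble and easier to export. They form the second step of detoxification, after oxidation by cytochromes P450 and before export by ABC transporters. Most nematode members belong to a large group of small soluble enzymes, while the omega, kappa and zeta classes have other chemistry. In worms many members are made in the intestine, and several are targets of SKN-1, the transcription factor of the Nrf type that answers oxidative and chemical stress.

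Each group held 3 libraries of total RNA from whole animals. The groups were dlk-1 mutant animals with 1 mM fluvastatin, dlk-1 mutant animals without it, wild-type animals with 1 mM fluvastatin, and wild-type animals without it. Exposure lasted 9 h and began at the fourth larval stage, on plates with OP-50 bacteria. Fluvastatin inhibits HMG-CoA reductase, the enzyme that commits carbon to the mevalonate pathway. DLK-1 heads a p38 MAP kinase cascade, and the sample titles call the mutant a p38 knockout while the genotype labels call it a dlk-1 mutant. The labels give neither the allele nor whether the mutant is 1 line. Replicates may or may not be separate cultures, as far as the labels go, and the p-values therefore rest on a spread that may be technical. All RNA is from whole animals, so fewer cells of a type and less RNA per cell cannot be told apart.

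Library depth ran between 9370975 and 12438131 reads, counted on a single model of each gene. The first principal component carried 58.5% of the variance and set the replicate 2 libraries of all 4 groups apart, and the second carried 14.4% and parted fluvastatin from control. A list of 7 sperm genes summed to 1133 to 1198 normalised reads in the replicate 2 libraries, against 3477 to 4533 in the others, and a list of 5 moulting genes summed to 945 to 1101 in the replicate 3 libraries, against 1413 to 2676 in the others. The sum of 5 intestinal markers, all found in every library, was 12918 to 16838 in mutant fluvastatin libraries, 11691 to 18378 in mutant controls, 12116 to 17232 in wild-type fluvastatin libraries and 12251 to 19048 in wild-type controls, so it overlapped between groups. Its lowest values, 11691 to 12918, were those of the replicate 2 libraries. The dlk-1 transcript was still counted in the mutant: 792, 706 and 804 normalised reads in mutant fluvastatin libraries, 481, 541 and 506 in mutant controls, 1419, 983 and 1345 in wild-type fluvastatin libraries and 961, 791 and 911 in wild-type controls. All mutant libraries were below the wild-type libraries of the same treatment, by -0.69 with fluvastatin and -0.80 without on the log2 scale (limma adjusted p = 1 in each, with the block 0.0218 and 0.011).

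In these values a normalised read is a read count divided by the size factor of its library, which compares libraries but not genes. Divided further by transcript length, the levels spanned the family widely. gst-1, which resembles the mammalian pi class and has been studied for the protection of dopamine neurons, stood first with a mean of 4727 normalised reads per kb over all 12 libraries. gst-7 followed at 1184, gst-5 at 1059, gst-26 at 984, gst-36 at 609, gst-27 at 550 and gst-10 at 548 normalised reads per kb. The order of neighbours is a description, and gst-27 and gst-10 differed by less than their spread between libraries. At the other end gst-37 had 0.736 normalised reads per kb and was at 0 in 8 of 12 libraries. The value of gsto-3, 467 normalised reads per kb, depends on its kept model of only 372 bases.

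Summed over the 49 members, the level per length was 14507 ± 1519 normalised reads per kb in mutant fluvastatin libraries and 13135 ± 1588 in mutant controls (SD, n = 3 each). It was 15396 ± 1631 in wild-type fluvastatin libraries and 13389 ± 1630 in wild-type controls (SD, n = 3 each). Unpaired, the groups overlapped within each genotype, while the fluvastatin library was the higher in 6 of 6 same-number pairs, also without gst-1. Without gst-5 it was not the higher in every pair. gst-5 averaged 1627 normalised reads per kb in mutant fluvastatin libraries against 317 in mutant controls. In wild type it averaged 1918 with fluvastatin against 375 without. The make-up of the sum was less alike. gst-5 made up 11.1 ± 2.24% of it in mutant fluvastatin libraries and 2.39 ± 0.268% in mutant controls, and 12.3 ± 1.92% in wild-type fluvastatin libraries and 2.77 ± 0.324% in wild-type controls. gst-10 made up 2.63 ± 0.285% in mutant fluvastatin libraries and 5.38 ± 1.09% in mutant controls, and 2.66 ± 0.324% in wild-type fluvastatin libraries and 5.05 ± 0.762% in wild-type controls. gst-1 alone held 34.4 ± 2.36% in mutant fluvastatin libraries, 36 ± 2.49% in mutant controls, 31.7 ± 1.70% in wild-type fluvastatin libraries and 32.8 ± 1.69% in wild-type controls. gst-21 was 1.25 ± 0.490% in mutant fluvastatin libraries against 0.0741 ± 0.0193% in mutant controls, and 1.82 ± 1.06% in wild-type fluvastatin libraries against 0.172 ± 0.0375% in wild-type controls.

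**Figure D1:**
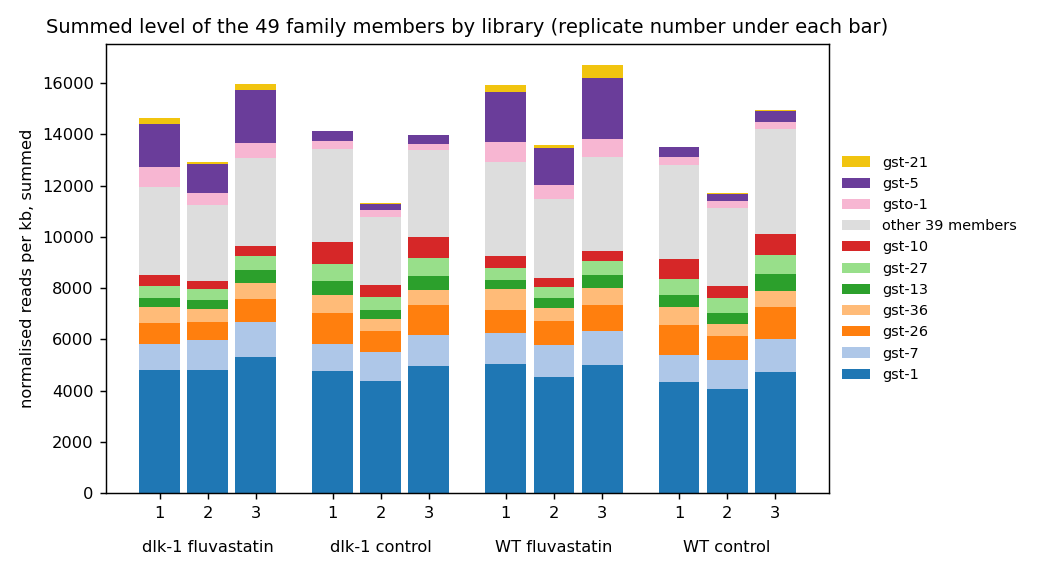
Stacked bars give the summed level of the 49 members in each of the 12 libraries, in normalised reads per kb of transcript, with 10 members in colour and the other 39 in light grey. The purple gst-5 section is wide in every fluvastatin library and thin in every control, while gst-1 holds 34.4, 36, 31.7 and 32.8% of the sum on average in the 4 groups from left to right.

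Changes were tested with limma on log2(normalised reads + 1) in 15529 genes that had at least 10 normalised reads in at least 3 libraries. This filter kept 40 of the 49 members. An adjusted p under 0.05 over all 15529 genes counted as a call. Because libraries with the same replicate number deviated together, a second fit that takes the replicate number as a block is given where it changes a call. Values after ± beside a log2 change are standard errors of the fit without the block. This holds also where an adjusted p with the block stands beside them.

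In the mutant, fluvastatin raised 4 of the 40 tested members (gst-21, gst-5, gst-33, gsto-1) and lowered 0, where 1.13% of all tested genes were called up and 0.251% down. With the block 6 were called up (those 4 with gst-18 and gsto-3) and 5 down (gst-10, gst-27, gst-29, gst-26, gst-4), where 3.22% of all tested genes were called up and 3.09% down. gst-18 passed the filter only through its fluvastatin libraries and does not bear on that comparison, which leaves 5 up. Among those down, gst-29 would not have passed the filter through its fluvastatin libraries alone, so its call is weak support. The blocked count of 5 down became 2 without mutant fluvastatin replicate 1 or 3 or mutant control replicate 1 or 3, and 3 without mutant fluvastatin replicate 2. In wild type, fluvastatin raised 3 (gst-21, gst-5, gsto-1) and lowered 0, where 1.39% of all tested genes were called up and 0.425% down. With the block 6 were called up there (those 3 with gst-33, gst-6 and gst-38) and 4 down (gst-10, gst-27, gst-28, gst-4), where the shares over all genes were 3.77% up and 3.25% down. The shares of members called up were 10% in the mutant and 7.5% in wild type, above the shares over all genes. At an unadjusted p under 0.05 limma found 11 members in each genotype, gst-18 among them, and the share over all genes was not computed. edgeR's quasi-likelihood test called 3 up and 0 down in each genotype. Over all genes it called 170 up and 33 down in the mutant and 211 up and 59 down in wild type. DESeq2 called 4 up in the mutant, 3 up in wild type and 0 down in either. Over all genes DESeq2 called 261 up and 101 down in the mutant and 304 up and 133 down in wild type. Without the 4 replicate 2 libraries 3 members were called up and 1 down (gst-10) in each genotype, and the share over all genes was not computed. Without the 4 libraries of replicate 1 or of replicate 3 the count was 0 in both directions.

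Positive and negative changes were equally many over the family. The median log2 change of the 40 tested members was 0.00 in the mutant and -0.01 in wild type, beside 0.01 and 0.01 over all 15529 genes, with 20 members above 0 and 20 below in each genotype. The quartiles of the members lay at -0.27 and 0.20 in the mutant and at -0.31 and 0.29 in wild type, beside -0.11 and 0.13 and -0.13 and 0.12 over all genes. At least a 2-fold change was fitted for 6 members in the mutant and 5 in wild type. Both counts include gst-18, and the mutant count includes gst-29, which both rest on few reads. The share over all genes was not computed for this count. Fluvastatin and control libraries did not overlap for 11 of the 40 in the mutant and for 9 of the 40 in wild type, against 7.93% and 8.97% of all tested genes. The 11 include gst-18 and gst-29, and the 9 include gst-11 and gst-29. Neither gst-11 nor gst-29 would have passed the filter through its fluvastatin libraries alone.

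**Figure D2:**
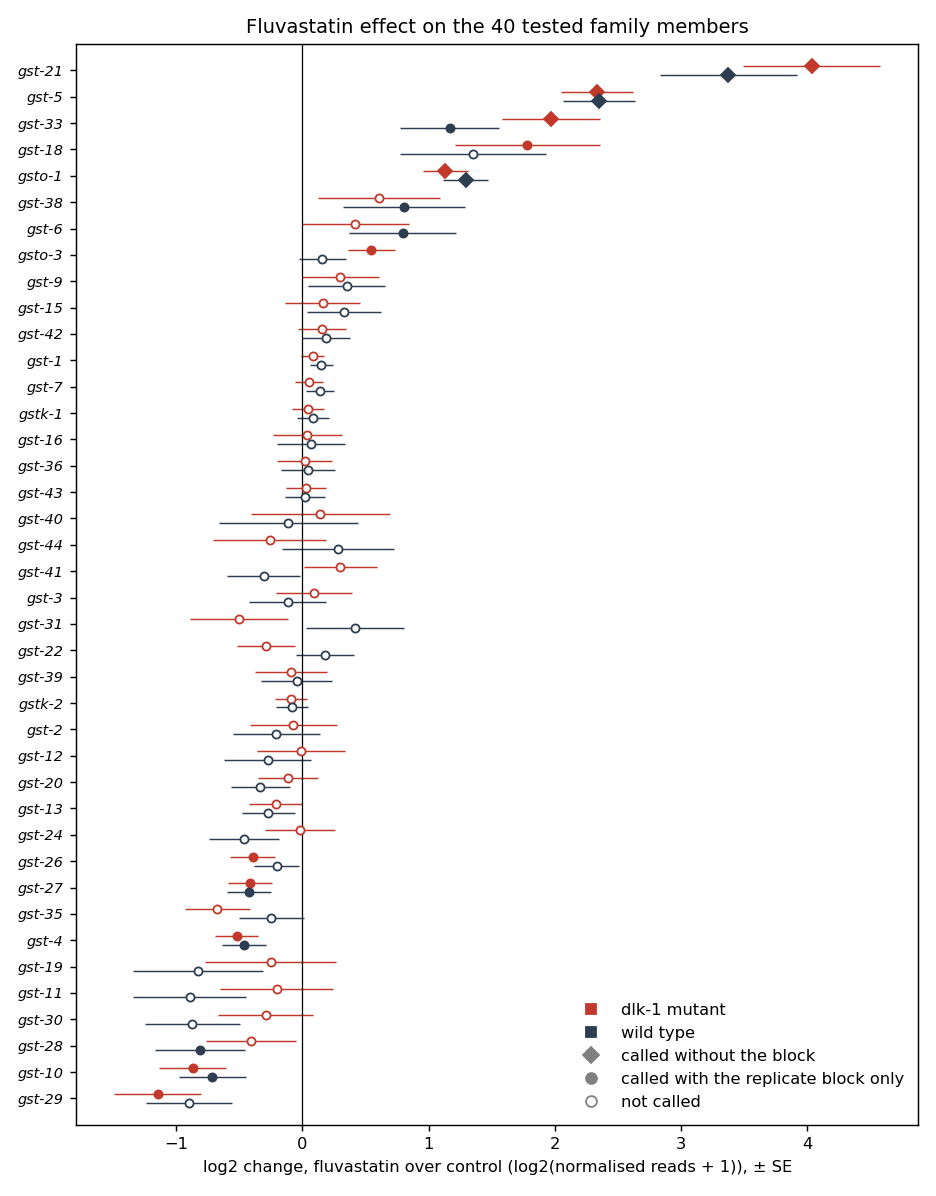
Each row is 1 of the 40 tested members, and points give the log2 change with fluvastatin against control with its standard error, for the dlk-1 mutant and for wild type, on log2(normalised reads + 1). gst-21 (4.03 in the mutant, 3.37 in wild type) and gst-5 (2.34 and 2.35) lie far to the right, gst-29 (-1.14 and -0.90) lies farthest left in both genotypes, and most of the others sit near 0.

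Of the omega class, whose enzymes use a cysteine in the active site and act as glutathione-dependent reductases, gsto-1 changed most. In worms gsto-1 is known for resistance to oxidative stress. It lies at III:7945542-7947018 on the minus strand (WBcel235), with 52 of its 806 exonic bases overlapping kle-2 on the other strand, and the library kit does not mark strand. It had 611, 399.8 and 479 normalised reads in mutant fluvastatin libraries, against 253, 230.4 and 189.5 in mutant controls. Wild-type libraries had 629, 456 and 568 with fluvastatin, against 231, 223 and 211 without. All 6 fluvastatin libraries were above all 6 controls. For gsto-1 this was a log2 change of 1.13 ± 0.18 in the mutant (limma adjusted p = 0.00864) and 1.30 ± 0.18 in wild type (adjusted p = 0.00282).

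gsto-3 moved less. It had 249, 187 and 194 normalised reads in mutant fluvastatin libraries, against 159.6, 135 and 134 in mutant controls, and the groups did not overlap. In wild type it had 217, 148 and 177 with fluvastatin and 188, 147 and 147 without, and the groups overlapped. Its log2 change in the mutant was 0.55 ± 0.19, with a limma adjusted p of 0.417, and 0.00259 with the block. In wild type the change was 0.16 ± 0.19 (adjusted p = 1, with the block 0.437). The third member, gsto-2, did not pass the filter, with 4.22, 5.59 and 4.23 normalised reads in mutant fluvastatin libraries, 5.08, 1.90 and 3.49 in mutant controls, 10.1, 6.25 and 7.85 in wild-type fluvastatin libraries and 4.35, 5.43 and 3.56 in wild-type controls. These rest on 2 to 11 reads a library, and the groups overlapped in the mutant and not in wild type.

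The kappa class, whose enzymes are found in mitochondria and peroxisomes, was not called by either fit. gstk-1 had 204, 251 and 248 normalised reads in mutant fluvastatin libraries and 229, 214 and 236 in mutant controls. It had 215, 257 and 254 in wild-type fluvastatin libraries and 220.1, 221 and 241 in wild-type controls, so every group overlapped. gstk-2 had 231, 205 and 246 in mutant fluvastatin libraries and 251, 221 and 252 in mutant controls, then 260.4, 225 and 245 in wild-type fluvastatin libraries and 275, 231 and 268 in wild-type controls. gstk-2 was lower with fluvastatin in 6 of 6 same-number pairs, but by only -0.09 ± 0.12 in the mutant and -0.08 ± 0.12 in wild type on the log2 scale (limma adjusted p = 1 in each).

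Of the zeta class, gst-42 encodes the worm maleylacetoacetate isomerase, which acts in the breakdown of tyrosine. It had 239.8, 209 and 294 normalised reads in mutant fluvastatin libraries, 260.2, 180.0 and 226 in mutant controls, 263, 238 and 298 in wild-type fluvastatin libraries and 247, 193 and 266 in wild-type controls. Groups overlapped, and the log2 changes with fluvastatin were 0.16 ± 0.19 in the mutant and 0.19 ± 0.19 in wild type (limma adjusted p = 1 in each). gst-43, its relative, had 93.7, 99.7 and 98.2 normalised reads in mutant fluvastatin libraries, 113, 91.4 and 83.7 in mutant controls, 98.5, 107 and 117 in wild-type fluvastatin libraries and 109, 101 and 107 in wild-type controls. Its log2 changes were 0.03 ± 0.16 in the mutant and 0.02 ± 0.16 in wild type, neither called.

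Among the gst genes, gst-21 had the largest rise. It lies at V:1730684-1732018 on the minus strand (WBcel235), and none of its exons overlaps another gene. It had 236, 89.5 and 208 normalised reads in mutant fluvastatin libraries, against 11.2, 9.52 and 6.98 in mutant controls. In wild type it had 269.6, 102 and 465 with fluvastatin, against 19.1, 17.2 and 30.9 without. Fluvastatin and control libraries were far apart in both genotypes, and the replicate 2 library was the lowest of the 3 fluvastatin libraries each time. The log2 change was 4.03 ± 0.54 in the mutant (limma adjusted p = 0.00329) and 3.37 ± 0.54 in wild type (adjusted p = 0.00832). Without the first wild-type fluvastatin library the wild-type change was 3.27 with an adjusted p of 0.0509, and with only the 2 wild-type groups in the fit that p was 0.071.

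By group mean per length, gst-5 rose to second in the family under fluvastatin in both genotypes. It lies at II:10950352-10951603 on the plus strand (WBcel235), and 12 of its 725 exonic bases overlap nos-1 on the other strand. It had 1214, 811 and 1514 normalised reads in mutant fluvastatin libraries, against 267, 171 and 250.0 in mutant controls. Wild-type libraries had 1414, 1029 and 1729 with fluvastatin, against 282, 204 and 329 without. The lowest fluvastatin library, at 811, was above the highest control of either genotype, at 329. On the log2 scale gst-5 rose by 2.34 ± 0.28 in the mutant (limma adjusted p = 0.00171) and 2.35 ± 0.28 in wild type (adjusted p = 0.00128). Per length, it averaged 1627 normalised reads per kb in mutant fluvastatin libraries and 1918 in wild-type fluvastatin libraries, where gst-7 averaged 1188 and 1260. In mutant fluvastatin replicate 2 gst-7 was the higher, at 9.10% of the family sum per length against 8.65% for gst-5.

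gst-33 was a weakly expressed gene that was higher with fluvastatin in both genotypes. It had 60.0, 42.9 and 66.6 normalised reads in mutant fluvastatin libraries, against 25.4, 11.4 and 8.14 in mutant controls. Wild-type libraries had 60.7, 41.6 and 64 with fluvastatin, against 24.4, 27.1 and 20.2 without. No library of one treatment overlapped the other within a genotype. Its log2 change was 1.97 ± 0.39 in the mutant (limma adjusted p = 0.0364, with the block 0.000918), and edgeR gave an adjusted p of 0.0575. Without 1 library at a time the mutant call was kept in 2 of 12 unblocked fits, with adjusted p between 0.0068 and 0.174. In wild type it was 1.17 ± 0.39, with an adjusted p of 0.345, and 0.0321 with the block, a call kept in 7 of 12 blocked fits without 1 library each.

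gst-6 and gst-38 were called higher only in wild type and only with the block, and the difference between genotypes passed for neither. gst-6 had 271, 135 and 206 normalised reads in mutant fluvastatin libraries and 207, 84.7 and 178 in mutant controls, then 266, 171 and 268 in wild-type fluvastatin libraries and 159, 76.9 and 189 in wild-type controls. Groups overlapped, yet the fluvastatin library was the higher in 6 of 6 same-number pairs. Its log2 change was 0.42 ± 0.43 in the mutant (with the block, limma adjusted p = 0.118) and 0.79 ± 0.43 in wild type (with the block, 0.00249). gst-38 had 31.2, 18.6 and 30.6 normalised reads in mutant fluvastatin libraries, 23.4, 8.57 and 23.3 in mutant controls, 51.5, 37.5 and 81.9 in wild-type fluvastatin libraries and 34.8, 18.1 and 45.1 in wild-type controls. It too was higher with fluvastatin in 6 of 6 pairs, by 0.61 ± 0.48 in the mutant (with the block, adjusted p = 0.157) and 0.80 ± 0.48 in wild type (with the block, 0.0448). In blocked fits without 1 library each, that wild-type call was kept in 5 of 12, with adjusted p up to 0.221, and the call of gst-6 in 12 of 12.

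**Figure D3:**
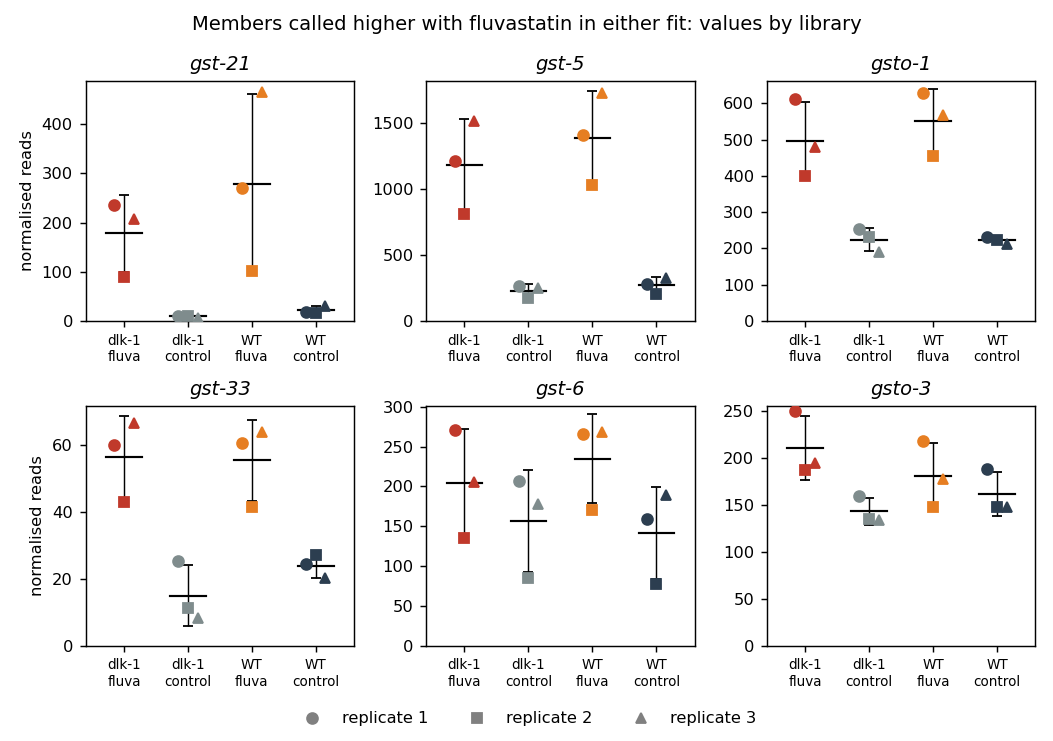
Points are the normalised reads of single libraries for 6 members called higher with fluvastatin, with marker shape for the replicate number, a line at the group mean and bars of 1 SD. For gst-21, gst-5 and gsto-1 every fluvastatin library is above every control of both genotypes, while for gst-6 the groups overlap and only the same-number pairs separate.

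gst-18 and gst-17 are neighbours on chromosome II that share 351 exonic bases on the same strand, so reads of one may have been counted for the other. gst-18 had 11, 11.2 and 6.34 normalised reads in mutant fluvastatin libraries, against 3.05, 0.952 and 2.33 in mutant controls. In wild type it had 10.1, 11.5 and 3.37 with fluvastatin, against 3.48, 2.71 and 1.19 without. It passed the filter only through its fluvastatin libraries, so its log2 changes of 1.78 ± 0.57 in the mutant (limma adjusted p = 0.363, with the block 0.0362) and 1.35 ± 0.57 in wild type (with the block 0.122) are not counted as support. gst-17 did not pass the filter. It had 14.4, 6.52 and 10.6 normalised reads in mutant fluvastatin libraries, against 1.02, 1.90 and 1.16 in mutant controls, and 5.52, 8.33 and 7.85 in wild-type fluvastatin libraries, against 4.35, 2.71 and 1.19 in wild-type controls. Without a filter its log2 change in the mutant was 2.24 (limma adjusted p = 0.046).

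On the lower side, gst-10 was below its controls in every same-number pair. It encodes an enzyme that conjugates 4-hydroxynonenal, a product of lipid peroxidation. It lies at V:2561690-2564645 on the plus strand (WBcel235), and none of its exons overlaps another gene. It had 309.9, 223 and 292 normalised reads in mutant fluvastatin libraries, against 625, 336 and 587 in mutant controls. The wild type gave 342, 260.3 and 281 with fluvastatin, against 538, 351 and 584 without. The groups did not overlap in either genotype, and the replicate 2 library was the lowest in all 4 groups. gst-10 differed by -0.87 ± 0.27 on the log2 scale in the mutant (limma adjusted p = 0.295, with the block 0.000263) and -0.71 ± 0.27 in wild type (adjusted p = 0.514, with the block 0.00118). Without the replicate 2 libraries it was called without a block as well, at -1.01 in the mutant (adjusted p = 0.0121) and -0.85 in wild type (adjusted p = 0.0221).

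gst-4 is the member most used as a reporter of SKN-1 activity in worms. It lies at IV:10142225-10143099 on the plus strand (WBcel235), and 65 of its 731 exonic bases overlap dhs-12 on the same strand. It had 169.7, 150.02 and 171 normalised reads in mutant fluvastatin libraries, against 260.2, 179 and 278 in mutant controls. The wild type gave 174, 194 and 189 with fluvastatin, against 228, 251 and 289.6 without. Every fluvastatin library lay below every control of its genotype. gst-4 differed by -0.52 ± 0.17 on the log2 scale in the mutant (limma adjusted p = 0.403, with the block 0.0263) and -0.46 ± 0.17 in wild type (adjusted p = 0.528, with the block 0.0474). Leaving out single libraries from the blocked fit kept the call in 7 of 12 fits in the mutant and 5 of 12 in wild type.

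**Figure D4:**
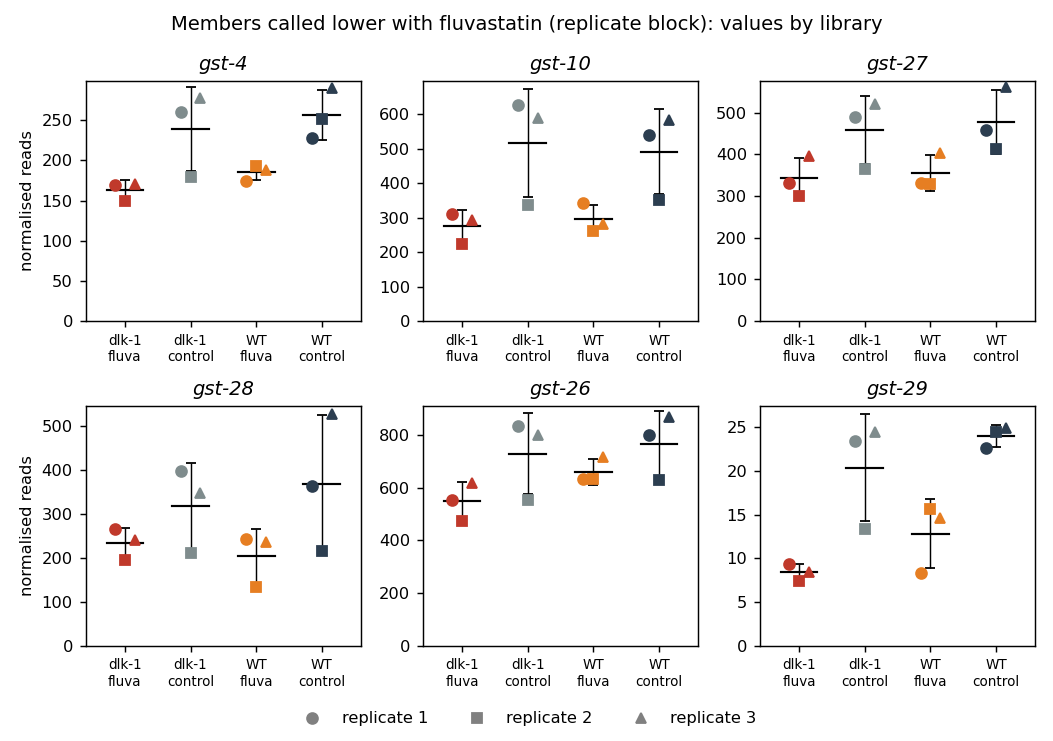
Points are the normalised reads of single libraries for the 6 members called lower with fluvastatin in the fit with the replicate block, with marker shape for the replicate number, a line at the group mean and bars of 1 SD. For gst-10 and gst-4 the fluvastatin libraries of a genotype lie below its controls, and for gst-27, gst-28 and gst-26 the replicate 2 control of the mutant falls among the mutant fluvastatin libraries.

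The family is gathered on chromosome II, which holds 26 of its 49 genes (53.1%), against 17.2% of all protein-coding genes in the annotation. With a gap of at most 10 kb between neighbours, 4 arrays of 3 or more genes were found. One runs from gst-26 to gst-35 at II:15163817-15185389 (WBcel235) and holds 9 genes on the minus strand within 21.6 kb (gst-26, gst-27, gst-28, gst-29, gst-39, gst-31, gst-32, gst-34, gst-35). Another runs from gst-20 to gst-18 at II:13608154-13630887 and also holds 9 genes on the minus strand, within 22.7 kb. The smaller ones are gst-6, gst-7, gst-8 and gst-9 at II:4879891-4893573 and gst-3, gst-2 and gst-4 at IV:10139380-10143099.

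Members of the gst-26 array were mostly lower with fluvastatin. Its 7 tested genes had a median log2 change of -0.41 in the mutant, with 7 of 7 below 0, and of -0.25 in wild type, with 6 of 7 below 0. gst-31, at 0.42 in wild type, was the exception. With the block 3 of the 7 were called lower in the mutant, where 3.09% of all tested genes were, and 2 in wild type, where 3.25% were. The 3 include gst-29, which would not have passed the filter through its fluvastatin libraries alone. In blocked fits without 1 library each, the mutant calls were kept in 12 of 12 for gst-27, 7 of 12 for gst-26 and 3 of 12 for gst-29, and the wild-type calls of gst-27 and gst-28 in 12 of 12. These neighbours are related sequences and are not independent of each other. gst-26, the most abundant per length, had 555, 475 and 619 normalised reads in mutant fluvastatin libraries, 834, 552 and 801 in mutant controls, 632, 633 and 718 in wild-type fluvastatin libraries and 801, 630.2 and 869.9 in wild-type controls. Its groups overlapped, and its log2 change was -0.39 ± 0.18 in the mutant (limma adjusted p = 0.893, with the block 0.0148) and -0.20 ± 0.18 in wild type (with the block 0.238).

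gst-27 is the next gene of the array. It had 332, 300.0 and 396 normalised reads in mutant fluvastatin libraries and 489.9, 366 and 519.7 in mutant controls, then 331, 328 and 404 in wild-type fluvastatin libraries and 458, 413 and 563 in wild-type controls. It was lower with fluvastatin in 6 of 6 same-number pairs, and its groups overlapped in the mutant. The log2 change was -0.41 ± 0.17 in the mutant (limma adjusted p = 0.773, with the block 0.00483) and -0.42 ± 0.17 in wild type (adjusted p = 0.677, with the block 0.00327).

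gst-28 had 264, 194 and 239.8 normalised reads in mutant fluvastatin libraries, 396, 209 and 346 in mutant controls, 243, 134 and 234.5 in wild-type fluvastatin libraries and 364, 216 and 526 in wild-type controls. Its groups overlapped, and it too was lower with fluvastatin in 6 of 6 pairs. The log2 change was -0.41 ± 0.36 in the mutant (with the block, limma adjusted p = 0.167) and -0.81 ± 0.36 in wild type (with the block, 0.00456). gst-29 had 9.29, 7.45 and 8.45 normalised reads in mutant fluvastatin libraries, 23.4, 13.3 and 24.4 in mutant controls, 8.28, 15.6 and 14.6 in wild-type fluvastatin libraries and 22.6, 24.4 and 24.9 in wild-type controls. Its groups did not overlap in either genotype, at -1.14 ± 0.34 in the mutant (adjusted p = 0.277, with the block 0.0438) and -0.90 ± 0.34 in wild type (adjusted p = 0.548, with the block 0.123). It passed the filter only with the help of its control libraries, so these changes are weak support.

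The other arrays are given beside it, and differences between arrays were not tested. The 7 tested genes of the gst-20 array had a median log2 change of -0.01 in the mutant and -0.28 in wild type, with 4 of 7 below 0 in each. The 3 tested genes of the gst-6 array had a median of 0.30 in the mutant and 0.35 in wild type, with 0 of 3 below 0 in either. In the gst-3 array, the median was -0.07 in the mutant and -0.21 in wild type, with 2 of 3 and 3 of 3 below 0.

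**Figure D5:**
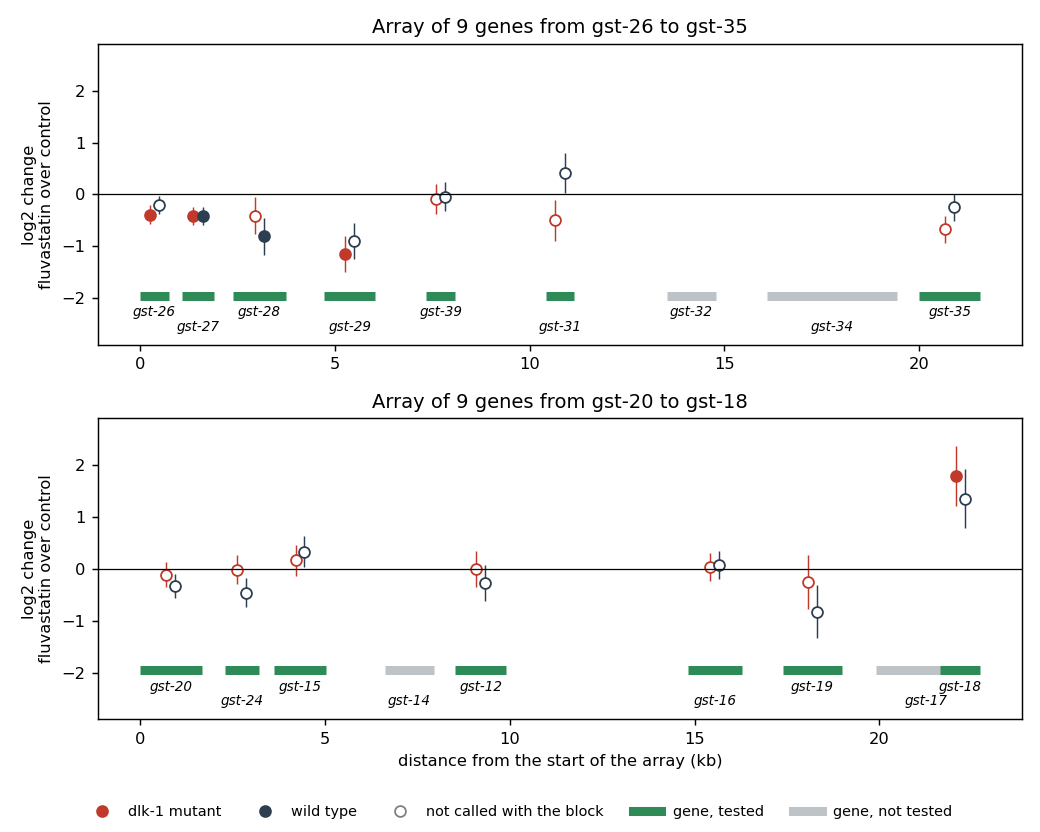
Points give the log2 change with fluvastatin for each tested gene of the 2 arrays of 9 genes on chromosome II, in the dlk-1 mutant and in wild type, against distance in kb from the low-coordinate end of the array, with bars of 1 standard error. Filled points were called with the replicate block, and thick bars mark the genes. In the gst-26 array every tested gene is below 0 in the mutant (median -0.41) and 6 of 7 are in wild type, while the gst-20 array lies on both sides of 0.

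gst-1, the most abundant member per length, was called by neither fit. It had 3592, 3595 and 3985 normalised reads in mutant fluvastatin libraries, 3562, 3268 and 3729 in mutant controls, 3774, 3391 and 3747 in wild-type fluvastatin libraries and 3242, 3049 and 3552 in wild-type controls. Fluvastatin was the higher in 6 of 6 same-number pairs, by 0.08 ± 0.09 on the log2 scale in the mutant and 0.15 ± 0.09 in wild type, and neither passed (limma adjusted p = 1 in each, with the block 0.424 and 0.0808). The remaining 21 tested members were called by neither fit in either genotype, with log2 changes between -0.67 and 0.30 in the mutant and between -0.89 and 0.42 in wild type.

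Same-number pairs give a count that needs no model. Of the 40 tested members, 9 were higher with fluvastatin in 6 of 6 pairs (gst-1, gst-5, gst-6, gst-18, gst-21, gst-33, gst-38, gsto-1, gsto-3), where 9.77% of all tested genes were. Another 9 were lower in 6 of 6 pairs (gst-4, gst-10, gst-11, gst-13, gst-20, gst-27, gst-28, gst-29, gstk-2), where 9.70% of all tested genes were. gst-18 passed the filter only through its fluvastatin libraries and had to be higher there, so 8 of the 9 higher members bear on that comparison. Among the lower members, gst-11 and gst-29 would not have passed the filter through their fluvastatin libraries alone and are weak support.

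The 9 members that did not pass the filter were gst-8, gst-14, gst-17, gst-23, gst-25, gst-32, gst-34, gst-37 and gsto-2. None had 10 normalised reads in more than 2 libraries, and their highest read count in any library was 19. gst-8 had 8.44, 2.80 and 5.28 normalised reads in mutant fluvastatin libraries, 3.05, 2.86 and 2.33 in mutant controls, 10.1, 8.33 and 12.3 in wild-type fluvastatin libraries and 5.22, 0.904 and 4.75 in wild-type controls. gst-34 had 1.69, 0 and 2.11 in mutant fluvastatin libraries, 2.03, 4.76 and 8.14 in mutant controls, 3.68, 1.04 and 1.12 in wild-type fluvastatin libraries and 6.96, 2.71 and 9.49 in wild-type controls. In wild type the gst-8 groups did not overlap. At this depth each of these values rests on few reads, and the values of gst-17 and gsto-2 stand above.

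Whether the mutation altered the response was asked by the difference of the 2 log2 changes, mutant minus wild type. It was called for 0 of 40 members and for 0% of all genes, by limma with and without the block, by edgeR and by DESeq2. At an unadjusted p under 0.05, limma found 0 members without the block and 1 with it (gsto-3), and edgeR and DESeq2 found 0. The difference was -0.01 ± 0.40 for gst-5, 0.66 ± 0.77 for gst-21, -0.17 ± 0.25 for gsto-1, 0.80 ± 0.55 for gst-33 and 0.39 ± 0.26 for gsto-3. A test that was not passed does not show that the genotypes respond alike.

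Mutant and wild type were then compared at each dose. With fluvastatin 0 of 40 members were called by limma, where 0% of all genes were, and 0 with the block, where 0.270% of all genes were. Without fluvastatin 0 of 40 were called, where 0% of all genes were, and 0 with the block, where 0.0966% of all genes were. edgeR and DESeq2 called 0 members at either dose. At an unadjusted p under 0.05, with fluvastatin limma found 1 member, limma with the block 8, edgeR 3 and DESeq2 2, and without fluvastatin they found 1, 8, 1 and 2. Shares over all genes were not computed for these unadjusted counts.

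The median log2 change of mutant against wild type was below 0 at both doses. It was -0.12 with fluvastatin, with 28 of 40 members below 0, and -0.10 without, with 32 of 40 below 0, beside 0.01 and 0.02 over all genes. With fluvastatin, mutant and wild-type libraries did not overlap for 8 of the 40 (gst-4, gst-22, gst-26, gst-31, gst-35, gst-38, gst-39, gst-44), against 4.54% of all genes, and all 8 were lower in the mutant. Without fluvastatin this held for 3 of the 40 (gst-2, gst-21, gst-24), against 2.92% of all genes, and all 3 were lower in the mutant. Among the 8, gst-31 had 5.07, 7.45 and 7.39 normalised reads in mutant fluvastatin libraries. It would not have passed the filter through its mutant libraries alone, so it is weak support. In same-number pairs at both doses 4 of 40 were lower in the mutant in 6 of 6 (gst-5, gst-21, gst-38, gst-39), against 4.35% of all genes, and 0 of 40 were higher in 6 of 6, against 4.05% of all genes.

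gst-39, a gene of the gst-26 array, is named here after its values were seen, as the 1 member with an unadjusted p under 0.05 at both doses in limma without the block. It had 70.1, 64.3 and 93.0 normalised reads in mutant fluvastatin libraries, against 137, 116 and 132 in wild-type fluvastatin libraries. It had 99.6, 55.2 and 91.8 in mutant controls, against 131, 97.7 and 179 in wild-type controls. The log2 change was -0.77 ± 0.28 with fluvastatin (limma adjusted p = 1, with the block 0.0681) and -0.72 ± 0.28 without (adjusted p = 1, with the block 0.237). For gst-38, whose values stand above, mutant against wild type was -1.02 ± 0.48 with fluvastatin and -0.83 ± 0.48 without (with the block, adjusted p = 0.0796 and 0.380). Neither gene passed.

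The share of members that were lowest in replicate 2 was close to the share over all genes. Of the 40 tested members 11 (27.5%) had their lowest value of a group in replicate 2 in all 4 groups (gst-5, gst-6, gst-10, gst-19, gst-27, gst-28, gst-36, gst-38, gst-39, gst-42, gstk-2), against 26% of all tested genes. gst-16 was the 1 member (2.5%) with its highest value there in all 4 groups, against 25.9% of all genes. The intestinal marker and sperm gene sums were lowest in the same libraries, as given above. So was the sum of 4 body wall muscle markers, at 33996 to 41012 normalised reads against 48774 to 66726 in the others. The sum of 5 hypodermis and cuticle markers was 3354 to 4305 there, against 5161 to 6857. Sums of neuron markers overlapped between replicates, and those of oocyte markers were lowest in replicate 1. The part of cell make-up in the member values was not tested.

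Genes around the conjugation step are given for context. Of 18 genes for the supply and use of glutathione 17 were tested, and 0 were called in either genotype. Over all tested genes, 1.13% were called up and 0.251% down in the mutant, and 1.39% up and 0.425% down in wild type. With the block 3.22% were called up and 3.09% down in the mutant, and 3.77% up and 3.25% down in wild type. The glutathione peroxidase gpx-5 was called lower in wild type only with the block (limma adjusted p = 0.0173). Its log2 change was -0.31 ± 0.09, with the standard error of the fit without the block. The rate-limiting enzyme of glutathione synthesis, gcs-1, was at -0.08 ± 0.12 in the mutant and 0.06 ± 0.12 in wild type. Of 10 genes of SKN-1 and its regulators 0 were called, beside the same shares over all genes. With the block wdr-23, which represses SKN-1, was called higher in wild type (limma adjusted p = 0.0268). Its log2 change was 0.25 ± 0.13, again with the standard error of the fit without the block. skn-1 itself was at 0.13 ± 0.10 in the mutant and 0.12 ± 0.10 in wild type, neither called.

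Transporters of the multidrug resistance-associated protein family can export glutathione conjugates from cells. The list tested held 9 transporter genes, mrp-1 to mrp-8 and hmt-1, which does not carry the name of that family. Of these 9, 0 were called in the mutant and 1 in wild type, where 1.13% and 1.39% of all tested genes were called up. With the block 3 were called higher in each genotype, where 3.22% and 3.77% of all tested genes were. mrp-2 had 244.9, 237.6 and 250.4 normalised reads in mutant fluvastatin libraries, against 144.3, 179 and 186 in mutant controls, and 340.5, 284.2 and 325.4 in wild-type fluvastatin libraries, against 187.9, 216.1 and 170.9 in wild-type controls. The log2 change was 0.53 ± 0.14 in the mutant (limma adjusted p = 0.158, with the block 0.0152) and 0.72 ± 0.14 in wild type (adjusted p = 0.0248). With the block mrp-3 was called higher as well (limma adjusted p = 1.8e-05 in the mutant and 1.1e-05 in wild type). So was mrp-5 (adjusted p = 0.00713 and 0.00434). Their log2 changes, with standard errors of the fit without the block, were 1.10 ± 0.34 and 1.13 ± 0.34 for mrp-3. For mrp-5 they were 0.65 ± 0.17 and 0.68 ± 0.17. The median log2 change of the 9 was 0.07 in the mutant and 0.05 in wild type, beside 0.01 and 0.01 over all genes.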

How the data were processed

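RNA was sequenced from whole animals in 12 libraries, as 50 bp single reads from a TruSeq kit that does not mark strand, per the labels' protocols. The submitters' processing notes list Bowtie and DESeq2 but no versions or roles. Neither build nor annotation is given in the sources used here. Deposited values are a normalised signal, made by the authors as read counts divided by 1 size factor per library (0.843 to 1.18). All values (100% within 0.01 read) were whole reads divided by this factor, so counts could be recovered. Libraries held 9370975 to 12438131 reads. Counting error was not measured apart from the spread between replicates, and it weighs most on members with few reads, such as those under about 20.

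The model with the highest mean stood for each of the 30301 genes, of 34873 models. Positions, lengths and overlaps come from the WBcel235 annotation of Ensembl release 115, to which all 49 members matched by sequence name. 12 members share exonic bases with another gene. Values were fitted as log2(value + 1), which understates changes of low genes, with limma 3.58.1 (R 4.3.3, trend and robust options) over all 4 groups, two-sided, after a filter of 10 in at least 3 libraries, with Benjamini-Hochberg adjustment over 15529 genes and a threshold of 0.05. edgeR 4.0.16 (quasi-likelihood) and DESeq2 1.42.0 ran on recovered counts. edgeR called 203 genes in the mutant and 270 in wild type for fluvastatin, DESeq2 362 and 437, and limma 214 and 282. Scripts were tested on simulated data.

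Same-number libraries deviated together from their group means, with a correlation of 0.555 to 0.887 over 18 pairs of libraries (median -0.523 between different numbers). The pairing comes from these correlations and not from a label, and limma with the replicate number as a block is given where it changes a call. Values in every library are given for members called in either fit and for members of known role. From the 3 pathway lists, called genes with gcs-1 and skn-1 are named. The members, lists and markers were chosen with earlier results of these data known.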

Additional observations from a re-analysis of the deposited data

How the results depend on the processing

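Each of 33 results on single members was recomputed under 24 alternatives. Results called in the main setting kept their direction and call in 138 cases and lost the call in 30. Results not called stayed so in 594 cases with the same direction, passed in 16 and changed sign in 11. The rises of gst-5 in both genotypes lost their call, among these alternatives, only when all libraries of replicate 1 or of replicate 3 were left out, where each group kept 2 libraries. The cause of these losses, beyond the fewer libraries, was not tested. gst-33 in the mutant was the least stable call, kept in 2 of the 12 fits without 1 library. With the fit limited to the 2 mutant groups, 2 members were called up in the mutant, and gsto-1 had an adjusted p of 0.097 there. The replicate block gave 6 up and 5 down in the mutant and 6 up and 4 down in wild type. Without libraries, counts up ranged from 0 to 4 in the mutant and from 0 to 3 in wild type, and counts down from 0 to 1 in each. The counts of 0 came without all libraries of replicate 1 or of replicate 3. Without all replicate 2 libraries the count was 3 up and 1 down (gst-10) in each genotype. Shares over all genes were not computed for the fits that left out libraries or groups. Under every alternative run, the block included, the difference between genotypes and mutant against wild type had 0 members called; the difference could not be fitted with only 2 groups.

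Sign changes were found for gst-43 in the mutant (-0.0705 to 0.176 without libraries), gst-43 in wild type (-0.0385 to 0.104) and gstk-1 in the mutant (-0.0475 to 0.149), all near 0 and never called. In blocked fits without 1 library each, an alternative added after seeing the data, gst-5, gst-21, gsto-1, gst-10 and gst-27 were called in 12 of 12 fits in both genotypes, as were gst-33 and gsto-3 in the mutant and gst-28 and gst-6 in wild type. The others were called in fewer: gst-33 in wild type in 7, gst-26 in the mutant in 7, gst-4 in 7 in the mutant and 5 in wild type, gst-38 in wild type in 5, gst-18 in the mutant in 5 and gst-29 in the mutant in 3. Blocked counts down ranged from 2 to 5 in the mutant and from 3 to 5 in wild type, and counts up from 5 to 6 and from 4 to 6. The count of 2 came without mutant fluvastatin replicate 1 or 3 or mutant control replicate 1 or 3, and the count of 4 without wild-type fluvastatin replicate 2 or 3 or wild-type control replicate 1 or 3. TMM scaling moved the median of all genes by at most 0.0113 on the log2 scale. Depth limits the 9 members that were not tested, and gst-18 and gst-29, which rest on few reads.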
